A study of Mus musculus with 2 samples.

Results

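Fibroblasts of CCl4-injured mouse liver that carried transcripts of portal fibroblast genes were examined in a droplet single-cell RNA-seq library. CCl4 (carbon tetrachloride) is a toxin that hepatocytes break down into harmful products, and repeated doses scar the liver. The cells were chosen by their own values, the number of RNA molecules of certain genes captured from a cell and tagged with unique molecular identifiers (UMIs). A member had at least 2000 UMIs with at most 30% of them mitochondrial, at least 20 UMIs summed over the matrix genes Col1a1, Col3a1, Dcn and Bgn, and at least 3 UMIs summed over Dpt, Clec3b, Cd34, Entpd2 and Pi16 (the portal sum). It also had at most 4 UMIs of the stellate genes Lrat, Reln, Colec11 and Rgs5 (the stellate sum), at most 1 UMI of the mesothelial genes Msln and Upk3b, and 0 UMIs of the endothelial genes Pecam1 and Cdh5. These limits chose 816 of the 6573 CCl4 cells past the depth and mitochondrial limits, or 12.4% [11.6, 13.2]. They also chose 3 healthy cells, which are not counted as members. Both files together held 14757 cells before any limit. Intervals in square brackets are 95% intervals that cover counting error only.

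The other library came from healthy mice, and with 1 library per condition there is no replicate behind any difference. The mice of both carried Col1a2-CreER and Rosa26-tdTomato on a C57BL/6 background, so that the Col1a2 promoter drove an inducible Cre that switches on a red reporter. The reporter was not analysed here. The injured animals received CCl4 2 times per week for 12 weeks from an age of 8 to 10 weeks, and how many animals went into each library was not given in the sources used here. Livers were digested with pronase and collagenase, the cells were taken from a Nycodenz gradient, and CD45-positive cells were depleted, which limits what the shares say of the tissue. The 816 members held 13569135 UMIs, and the median member had 15036.5 UMIs and 3970 genes, against 14074 UMIs and 3800 genes in the 2745 stellate cells of the same library (stellate sum of 5 or more, same other limits apart from the portal sum). The 2 libraries shared 10 cell barcodes, of which 0 were members.

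Portal fibroblasts lie in the connective tissue around the bile ducts and portal vessels, while stellate cells lie along the sinusoids, store vitamin A and are the main source of scar-forming myofibroblasts after toxic injury. In textbooks both lay down fibrillar collagen. Portal fibroblasts are told apart by surface and matrix proteins such as Thy1, elastin, fibulin 2 and the ectonucleotidase Entpd2, and stellate cells by retinoid handling and by proteins such as reelin. Mesothelial cells cover the surface of the liver and share several genes with fibroblasts.

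The 5 genes of the portal sum did not mark the members alike, and the name portal-type fibroblast was not borne out by them as a whole. Dpt, which encodes the small matrix protein dermatopontin, gave 65.1% of the members' portal UMIs, but its level was 499 CPM [487, 511] in the members (CPM, the gene's UMIs summed over the cells and divided by all their UMIs, times 1000000) and 487 CPM [480, 493] in stellate cells. Of the stellate cells, 66.8% [65.1, 68.6] also reached a portal sum of 3, as did 51.6% [48.6, 54.5] of the 1142 mesothelial cells (5 or more UMIs of Msln and Upk3b) and 6.96% [4.24, 10.7] of the 273 immune cells (3 or more UMIs of Ptprc). The mesothelial and stellate cells are named by these sums only. Clec3b, the gene of the plasminogen-binding protein tetranectin, stood at 44.7 CPM [41.2, 48.4] in the members against 1.80 CPM [1.41, 2.27] in stellate cells, and at 64.5 CPM in mesothelial cells. Cd34, a surface sialomucin of fibroblast progenitors and endothelium, stood at 178 CPM [171, 186] against 60.8 [58.4, 63.3], with 116 CPM in mesothelial cells. Entpd2 had 43.5 CPM [40.0, 47.1] against 11.7 [10.6, 12.8], with 39.9 CPM in mesothelial cells. Pi16, a marker of adventitial fibroblasts, had 20 UMIs in all members, 1.47 CPM [0.900, 2.28], which was below the 17.2 CPM [12.1, 23.8] of immune cells. With each cell thinned to 2000 UMIs, the expected share of members with a UMI was 54.8% for Dpt, 27.5% for Cd34, 8.52% for Entpd2, 6.19% for Clec3b and 0.264% for Pi16, and without thinning it was 76.3%, 77.3%, 43.9%, 23.9% and 2.08%. In immune cells, which had a median of 5991 UMIs, the thinned shares were 5.32%, 2.14%, 0.599%, 0.327% and 5.55% in the same order. The share for Pi16 was below that of immune cells, of which 25 held a Pi16 UMI, so they cannot serve as its background. Because the selection used these genes, their levels describe the rule, and the cells are called gated fibroblasts below.

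**Figure D1:**
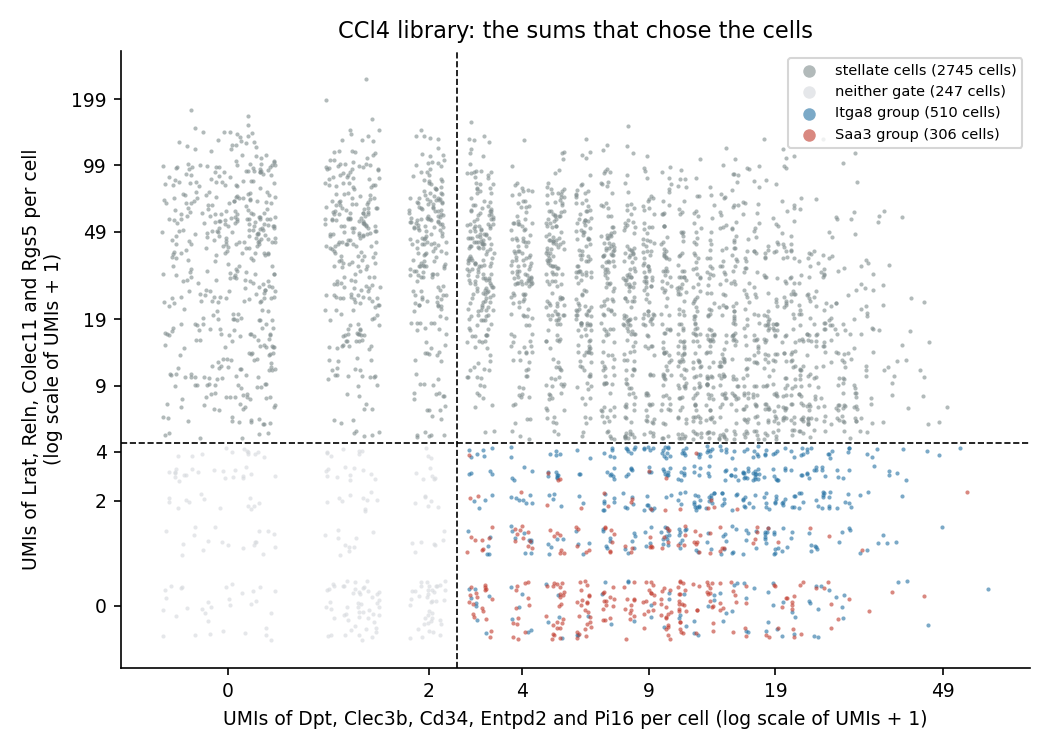
UMIs of the portal genes (x axis) against UMIs of the stellate genes (y axis) in single cells of the CCl4 library past the depth, matrix, mesothelial and endothelial limits, both on a log scale of UMIs + 1 with a small random shift. Dashed lines mark the limits: the 816 gated fibroblasts (red and blue, 2 groups described in the text) lie at the lower right, and 1835 of the 2745 stellate cells (grey) lie on the same side of the portal limit.

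At the limits the members ran into their neighbours. Just inside the portal limit, 56 cells had a sum of 3, and 61 cells that passed every other limit had a sum of 2. Members with sums of 3 to 4, 5 to 9 and 10 or more numbered 108, 233 and 475. Just inside the stellate limit, 97 members had a stellate sum of 4, and 87 cells outside it had a sum of 5. Colec10, a lectin gene of stellate cells, had 2.97 CPM in the former and 4.93 CPM in the latter, and 74.98 CPM in cells with a stellate sum of 9 or more. Cells with stellate sums of 5 to 8 thus had levels of Colec10 nearer those of members than those of cells with 9 or more. Itga8, the integrin alpha 8 gene, had 186 CPM in members with a stellate sum of 0, 959 CPM at a sum of 4, 974 CPM at a sum of 5 and 543 CPM at 9 or more. The acute-phase gene Saa3 ran the other way among the members, from 19881 CPM at a stellate sum of 0 to 14356 at 1, 5648 at 2, 2768 at 3 and 1490 at 4.

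**Figure D2:**
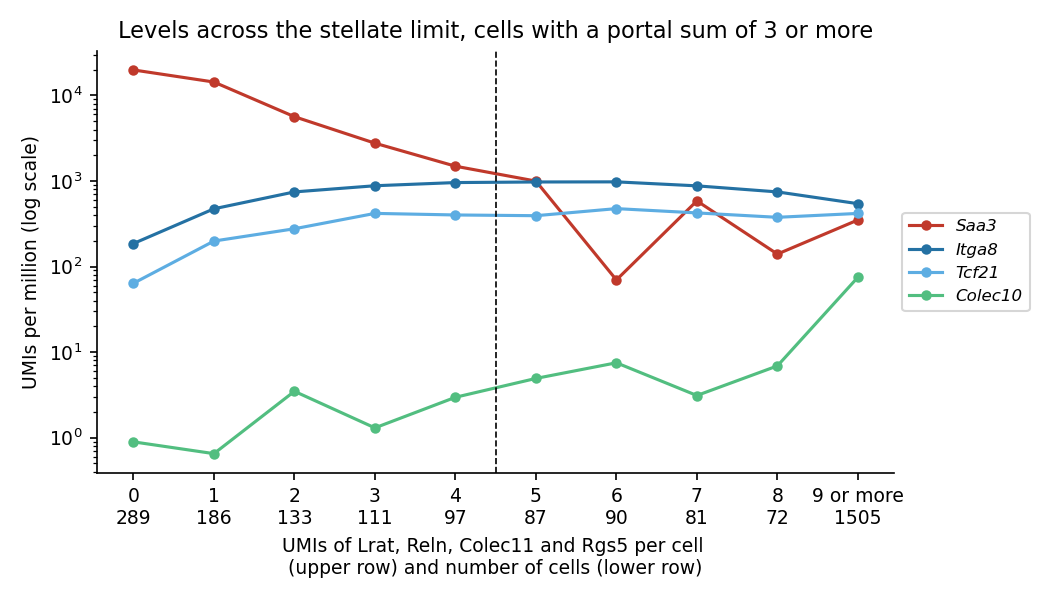
Summed level of 4 genes in CPM (y axis, log scale) by stellate sum of the cell (x axis, number of cells beneath), in CCl4 cells with a portal sum of 3 or more. The dashed line is the limit between gated fibroblasts (left) and stellate cells (right): Saa3 fell from 19881 to 1490 CPM within the members, while Colec10 was highest at a sum of 9 or more (74.98 CPM).

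The members were not of 1 kind. When they were clustered on variable genes without the 17 genes of the limits, they split into a group of 306 cells led by Saa3 (37.5% [34.2, 40.9]) and a group of 510 cells led by Itga8 (62.5% [59.1, 65.8]), named here by their leading genes. The groups were formed from the expression of these same cells, so the values that follow describe them and no test was made. Saa3, an acute-phase serum amyloid gene of the injured liver, stood at 24644 CPM [24528, 24760] in the Saa3 group and 88.4 CPM [81.4, 95.9] in the Itga8 group. Per 10000 UMIs of a cell, the quartiles of Saa3 were 81.1, 205 and 346 in the Saa3 group and 0, 0.669 and 1.38 in the Itga8 group. Itga8 stood at 8.72 CPM [6.67, 11.2] in the former and 1002 CPM [978, 1026] in the latter, and a UMI of it was present in 9.15% and 98.6% of the cells. The Saa3 group had a median of 21420.5 UMIs per cell and the Itga8 group 12918.

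The portal genes divided between these groups. Dpt had 82.6 CPM [76.0, 89.6] in the Saa3 group and 943 CPM [920, 967] in the Itga8 group, so it was lower in the former and higher in the latter than the 487 CPM of stellate cells. Clec3b went the other way, with 80.3 CPM [73.8, 87.2] in the Saa3 group and 6.85 CPM [4.996, 9.16] in the Itga8 group. Cd34 (212 and 143 CPM) and Entpd2 (52.2 and 34.2 CPM) were nearer to each other in the 2 groups. In the Saa3 group 92.2% [88.6, 94.9] of the cells met the portal limit without Dpt, and in the Itga8 group 38.2% [34.0, 42.6] did. A stellate sum of 0 was found in 68.0% [62.4, 73.2] of the Saa3 group and 15.9% [12.8, 19.3] of the Itga8 group. Of the 195 members with a Clec3b UMI, 170 (87.2%) were in the Saa3 group, against 136 of the 621 without, at median depths of 20017 and 13961 UMIs. Members with a portal sum of 3 to 4 were in the Saa3 group in 49.1% of cases, those with 5 to 9 in 52.4% and those with 10 or more in 27.6%. The share thus did not rise steadily with the portal sum, most of which was Dpt.

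**Figure D3:**
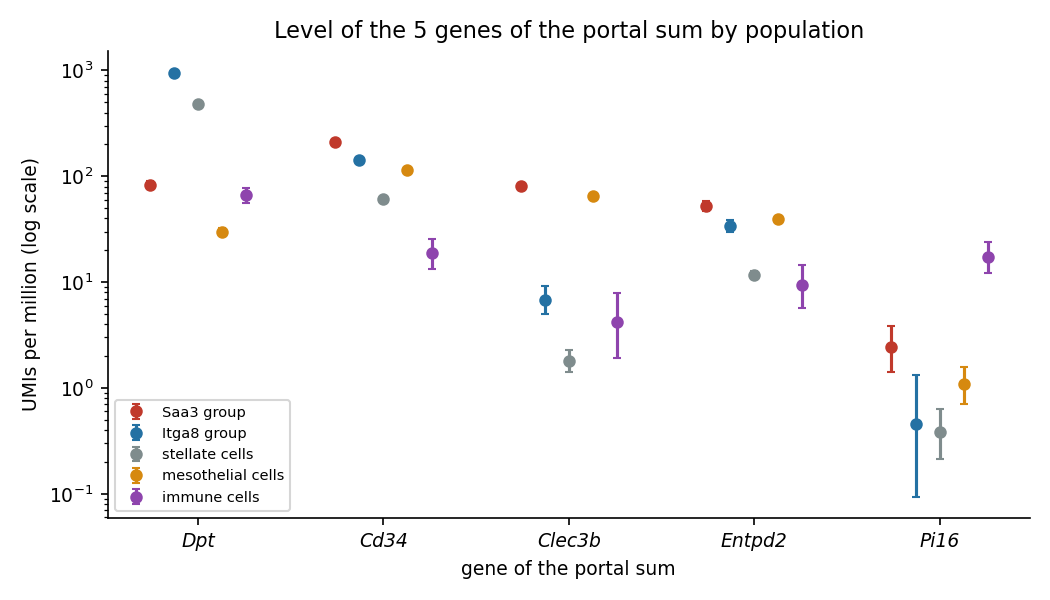
Level of each gene of the portal sum in CPM (y axis, log scale) in 5 populations of the CCl4 library; bars are exact Poisson 95% intervals. Dpt was highest in the Itga8 group (943 CPM) and Clec3b in the Saa3 group (80.3 CPM), and Pi16 was highest in immune cells (17.2 CPM).

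Across all genes the Saa3 group lay nearer to mesothelial cells and the Itga8 group nearer to stellate cells. Over 8311 genes outside the limits, the correlation of log2(CPM + 1) was 0.918 between the Saa3 group and mesothelial cells and 0.737 with stellate cells. For the Itga8 group it was 0.755 and 0.963. These are correlations across genes of 1 library, which are not independent replicates. The mesothelial markers other than the 2 of the limit were low in the Saa3 group but not absent. Lrrn4 stood at 66.2 CPM in the Saa3 group, 345 in mesothelial cells and 1.98 in the Itga8 group, and the glycoprotein gene Gpm6a at 31.3, 529 and 1.67 CPM. The keratin gene Krt19 stood at 26.4, 422 and 1.07 CPM in the same order, and Upk1b, a uroplakin gene, at 6.001, 291 and 0.761 CPM. Wt1, a transcription factor gene of mesothelium and of some fibroblasts, stood at 242 CPM in the Saa3 group, 303 in mesothelial cells, 181 in the Itga8 group and 79.8 in stellate cells. Summed over the 11 genes of the mesothelial list, of which all were detected in both groups, the level was 410 CPM in the Saa3 group (from 0 to 30.6 per 10000 UMIs in single cells), 198 CPM in the Itga8 group (0 to 11.3) and 3987 CPM in mesothelial cells. The sum includes Msln and Upk3b, which the limits cap in the members and require in mesothelial cells, where they stood at 477 and 769 CPM. At most 1 UMI of the list without Krt8, Krt18 and Wt1 was found in 41.8% [36.2, 47.6] of the Saa3 group and 97.8% [96.2, 98.9] of the Itga8 group. Just outside the mesothelial limit, 33 cells with 2 UMIs of Msln and Upk3b that met all other limits had 22842 CPM of Saa3 and 145 CPM of Lrrn4, against 13290 and 63.0 CPM in the 103 members with 1 UMI and 12656 and 30.02 CPM in the 713 members with 0. The part of mesothelial cells in the Saa3 group was not tested.

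The comparison with stellate cells asked which genes set the gated fibroblasts apart from the main fibroblasts of the scar. A gene was counted as higher or lower when the ratio of CPM was at least 2 (or at most 0.5) and its interval lay above (or below) 1. Among 8298 genes with a mean of at least 10 CPM, 365 (4.4%) were higher and 347 (4.18%) were lower in gated fibroblasts, with a median log2 ratio of -0.01 over all of them. Because the members were chosen for few stellate transcripts, this contrast is the one the rule used and nothing is inferred from these counts. Within the Saa3 group 621 of 8181 genes (7.59%) were higher and 1085 (13.3%) lower than in stellate cells, and within the Itga8 group 231 of 8349 (2.77%) were higher and 202 (2.42%) lower. The median log2 ratios were -0.10 and 0.06.

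The 15 genes with the largest ratios, by the interval bound nearest to 1 among genes of at least 100 CPM, were all higher in the Saa3 group than in the Itga8 group. Saa3 itself stood at 12753 CPM [12693, 12814] in all gated fibroblasts and 298 CPM [293, 304] in stellate cells, a ratio of 42.8 [42.0, 43.6], with 2218 CPM in immune cells and 20439 CPM in mesothelial cells. The list held genes of several kinds. The haemoglobin-binding protein gene Hp had 903 against 25.2 CPM, the siderophore-binding Lcn2 265 against 8.89, and the protease inhibitor Slpi 1261 against 53.1. Immune cells had 383 CPM of Hp, 674 of Lcn2 and 1486 of Slpi. Calca, which encodes calcitonin and the peptide CGRP, had the highest ratio of the 15, 50.1 [41.0, 61.7], at 131 against 2.62 CPM. The serpin gene Serpinb2 (265 against 5.94 CPM), the adhesion molecule gene Chl1 (165 against 3.81), the epithelial dermokine gene Dmkn (287 against 8.02) and the galectin gene Lgals7 (134 against 5.51) were also among them. So were Osr1, a transcription factor gene of mesenchyme (102 against 3.88 CPM), and Enpp2, the gene of the lysophosphatidic acid-producing enzyme autotaxin (166 against 6.60). Fndc1, Tesc, Nkain4 and Clca3a2 completed the list with ratios from 25.2 to 33.0. In the Itga8 group none of the 15 exceeded 88.4 CPM, and 14 of them lay between 0.152 and 24.0 CPM. Each of the 15 was lower in the Itga8 group than in stellate cells, from Saa3 (88.4 against 298 CPM) to Osr1 (3.20 against 3.88). The higher levels in all gated fibroblasts are thus those of the Saa3 group. Mesothelial cells had more than the Saa3 group of Slpi (9474 against 2423 CPM), Nkain4 (480 against 380), Osr1 (317 against 195) and Lgals7 (276 against 260). The other genes of the 15 were lower in mesothelial cells than in the Saa3 group, with Dmkn at 508 against 554 CPM.

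The RefSeq promoters of 3 secreted defence genes are shown because these genes were high in the Saa3 group. They were picked after their levels were seen, and each window runs from 250 bases before to 50 bases after the start site on the minus strand of build GRCm38.p6. Saa3 is at chr7:46715627-46715926, Lcn2 at chr2:32387690-32387989 and C3 at chr17:57228087-57228386. Capitals mark matches on either strand to GGGA followed by 4 bases of any kind and CC, a core of NF-kB sites, or to TTNNGNAA, a core of C/EBP sites.
Saa3: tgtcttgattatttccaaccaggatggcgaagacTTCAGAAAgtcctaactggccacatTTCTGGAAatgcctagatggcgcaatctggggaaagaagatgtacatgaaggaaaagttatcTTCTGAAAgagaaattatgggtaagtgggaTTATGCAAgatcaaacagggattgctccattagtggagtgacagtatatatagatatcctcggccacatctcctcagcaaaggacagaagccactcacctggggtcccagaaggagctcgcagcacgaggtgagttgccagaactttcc
Lcn2: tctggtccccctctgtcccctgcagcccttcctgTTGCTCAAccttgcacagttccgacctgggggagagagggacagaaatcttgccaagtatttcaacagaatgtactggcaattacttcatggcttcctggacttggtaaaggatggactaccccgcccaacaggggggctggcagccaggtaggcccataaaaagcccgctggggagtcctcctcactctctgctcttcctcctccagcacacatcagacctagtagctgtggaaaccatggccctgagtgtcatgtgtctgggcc
C3: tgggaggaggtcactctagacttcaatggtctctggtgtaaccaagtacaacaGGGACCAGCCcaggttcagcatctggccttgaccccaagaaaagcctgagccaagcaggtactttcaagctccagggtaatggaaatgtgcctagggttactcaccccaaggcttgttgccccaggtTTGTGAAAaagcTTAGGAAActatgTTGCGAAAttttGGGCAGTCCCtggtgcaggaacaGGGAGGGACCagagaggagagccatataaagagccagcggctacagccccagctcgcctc
Saa3 had 4 matches to the C/EBP letters, Lcn2 had 1 and C3 had 3, and C3 alone of the 3 had matches to the NF-kB letters, also 3. Matches to the 2 motifs did not overlap. The C/EBP letters were found in 40.7% of all 32851 promoters of this length and the NF-kB letters in 20.7%. Of the 15 genes highest against stellate cells, 11 had a promoter in the table, of which 10 held the C/EBP letters and 2 the NF-kB letters. Of the 15 lowest, 8 had a promoter, of which 3 and 2 did. A gene was counted if any of its promoters held the letters, so these counts and the shares of single promoters are not alike. A match is a description of letters and says nothing of binding.

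The 15 genes lowest against stellate cells included receptors, lectins and signals of stellate cells. Colec10 had 1.47 CPM in gated fibroblasts against 101 CPM in stellate cells, a ratio of 0.0147 [0.00894, 0.0227]. Tmem56 (4.42 against 180.0 CPM) and Plvap, the gene of a protein of endothelial diaphragms (19.97 against 897), were among the lowest. The Wnt enhancer gene Rspo3 had 24.6 against 418 CPM, and the growth factor gene Bmp5 25.1 against 198. Receptors of vasoactive peptides were also lower: Ednrb (33.4 against 390 CPM) and Ednra (17.5 against 132) for endothelin, Agtr1a (10.4 against 131) for angiotensin and Vipr1 (8.18 against 108) for the vasoactive intestinal peptide. Masp1, a protease of the lectin complement pathway, had 87.4 against 755 CPM, and the matrix gene Tgfbi 63.0 against 778. Ifitm1, Igfbp3 and Clca3a1 had ratios of 0.0573, 0.142 and 0.141. Clca3a1 and Clca3a2 are close relatives whose reads the counting could split, so their opposite directions are uncertain.

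**Figure D4:**
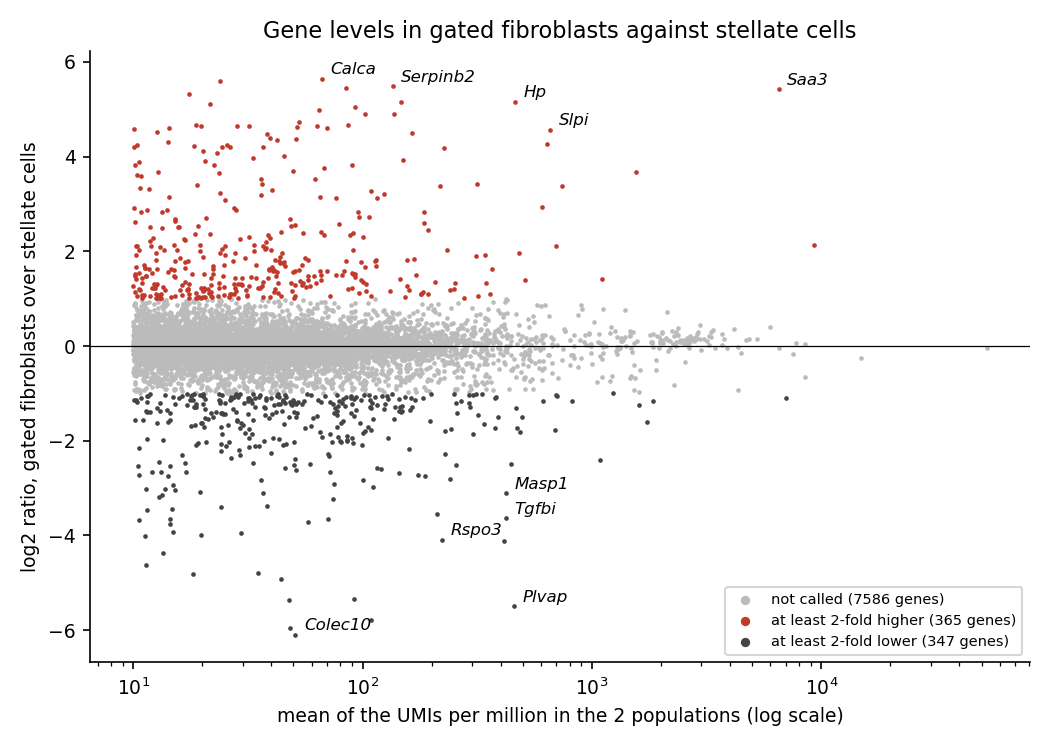
Mean level of each gene in gated fibroblasts and stellate cells (x axis, CPM, log scale) against the log2 ratio of the levels (y axis); each point is 1 of 8298 genes. The 365 genes at least 2-fold higher (red) include Saa3 and Hp at the top, and the 347 at least 2-fold lower (dark) include Colec10 and Plvap at the bottom.

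The Itga8 group was also lower than stellate cells in some stellate genes. It had genes higher than in stellate cells too, though not all were its own. Its 15 highest by the same rule were led by Thbs4, a thrombospondin gene of injured matrix, at 143 against 20.7 CPM in stellate cells, a ratio of 6.93 [6.30, 7.62]. Others were the carboxypeptidase-like Cpxm2 (103 against 18.6 CPM), the heparin-binding growth factor gene Ptn (306 against 76.0), the fibrinogen-like Fgl2 (756 against 183), and Mgp, whose product holds back calcification (201 against 54.0). Serpinf1, the gene of the antiangiogenic factor PEDF, had 193 against 50.7 CPM and the VEGF receptor gene Flt1 151 against 42.5. In the Saa3 group Serpinf1 had 165 CPM, and Flt1 was also called higher than in stellate cells. Mgp reached 1821 CPM in a cluster of 157 cells within the Saa3 group. The calcium-handling and contractile genes Casq2 (124 against 31.1 CPM) and Tnnt2 (183 against 52.02) were higher too. Its lowest genes were Plvap (17.8 against 897 CPM), Colec10 (2.28 against 101) and Tmem56 (7.76 against 180.0). Transcription factor genes of stellate cells were kept in part: Tcf21 stood at 406 CPM in the Itga8 group and 407 in stellate cells, Hand2 at 371 and 386, and Lhx2 at 77.2 and 161. In the Saa3 group these 3 stood at 6.14, 34.3 and 1.43 CPM.

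Portal and adventitial fibroblast genes that the rule did not use were mixed. Of 30 such genes in the file, 19 were measured at 10 CPM or more, 7 were higher, 2 were lower and 10 did not pass, with a median log2 ratio of 0.50 against -0.01 over all genes. In the Saa3 group 9 of 21 were higher and 4 lower, and in the Itga8 group 4 of 17 were higher and 4 lower. Over all genes 4.4% were higher and 4.18% lower in gated fibroblasts. The shares were 7.59% and 13.3% in the Saa3 group and 2.77% and 2.42% in the Itga8 group. Summed over the list, the level was 3061 CPM in the Saa3 group, 2445 in the Itga8 group, 1495 in stellate cells and 4390.5 in mesothelial cells. The higher ones were the fibulin genes Fbln1 (147 against 35.8 CPM) and Fbln2 (208 against 23.9), the microfibril gene Mfap5 (41.9 against 1.22), the complement-decay gene Cd55 (168 against 11.8), the guidance ligand gene Slit3 (98.2 against 4.75), Igfbp6 (427 against 23.6) and Scara3 (48.7 against 2.59). Heyl, a Notch target of mural cells, and Ly6a were lower. Fbln2, Slit3, Mfap5 and Scara3 were genes of the Saa3 group (371, 185, 81.0 and 91.4 CPM), with 33.9, 5.94, 0.304 and 3.20 CPM in the Itga8 group. Mesothelial cells had 106 CPM of Fbln2, 60.9 of Slit3, 38.7 of Mfap5 and 9.42 of Scara3. The elastic microfibril gene Mfap4 went the other way, with 14.6 CPM in the Saa3 group and 518 in the Itga8 group against 156 in stellate cells. Thy1, the classic portal fibroblast marker, was low everywhere, at 11.6 CPM [9.90, 13.6] in gated fibroblasts, 6.88 [6.09, 7.75] in stellate cells and 31.7 CPM in immune cells, and elastin (Eln) stood at 197 against 158 CPM. Gli1, a hedgehog target of periductal fibroblasts, had 1.84 against 1.70 CPM.

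Stellate cell genes other than those of the stellate sum were mostly lower. The members were capped in stellate transcripts and the stellate cells were required to hold them. Genes that go with those transcripts are thus lower by selection, and nothing is inferred from these counts. Of 21 measured, 13 were lower and 1, the prostaglandin receptor gene Ptger3, was higher, with a median log2 ratio of -1.64. The counts were 17 lower and 1 higher of 21 in the Saa3 group and 11 lower and 0 higher of 20 in the Itga8 group. Over all genes 4.18% were lower in gated fibroblasts, 13.3% in the Saa3 group and 2.42% in the Itga8 group. Summed over the list, the level was 1206 CPM in the Saa3 group, 4480 in the Itga8 group and 6231 in stellate cells. The hepatocyte growth factor gene Hgf stood at 5.14 CPM in the Saa3 group and 344 in the Itga8 group against 467 in stellate cells, and Cygb, the cytoglobin gene, at 60.4 and 712 against 846. Of the 10 retinoid storage genes measured, 4 were higher (Rdh10, Rarres1, Aldh1a2 and Rbp4) and 1 lower, at a median log2 ratio of 0.17. The shares over all genes were 4.4% higher and 4.18% lower. Aldh1a2, which makes retinoic acid, stood at 121 CPM in the Saa3 group, 2.13 CPM in the Itga8 group and 21.5 CPM in stellate cells.

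Of 20 collagen chains measured, 4 were higher and 3 lower in gated fibroblasts, 4 higher and 11 lower in the Saa3 group, and 3 higher and 1 lower in the Itga8 group, with median log2 ratios of -0.18, -1.22 and 0.19. The chain gene Col6a5 had 569 CPM in the Saa3 group, 68.2 in the Itga8 group and 45.8 in stellate cells, and Col6a3 had 165, 1809 and 1485. Col14a1, a fibril-associated collagen gene, had 96.6, 608 and 1822 CPM. Over all genes 4.4% were higher and 4.18% lower in gated fibroblasts. The shares were 7.59% and 13.3% in the Saa3 group and 2.77% and 2.42% in the Itga8 group. Of 20 elastic fibre genes, 4 were higher and 2 lower in gated fibroblasts, and the counts were 4 and 9 of 20 in the Saa3 group and 3 and 1 of 18 in the Itga8 group. Ltbp2, of the same list, stood at 54.4 CPM in the Saa3 group, 915 in the Itga8 group and 356 in stellate cells. Among 7 small proteoglycan and versican genes, versican (Vcan) was higher (85.6 against 30.7 CPM), 2 were lower, and lumican (Lum) had 396 CPM in the Saa3 group and 2291 in the Itga8 group against 1736. Of 14 metalloproteinase and inhibitor genes, Mmp19 and Timp1 were higher and Adamts10 was lower. Timp1, an inhibitor of matrix breakdown, had 643 CPM in the Saa3 group and 62.9 in the Itga8 group against 143.

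Contractile genes were mostly lower in the Saa3 group, and myofibroblast activation genes were mixed. Of 18 activation genes measured, 4 were higher (Fn1, Spon2, Spp1 and Timp1) and 3 lower (Postn, Tnc and Ccn2) in gated fibroblasts, with 4 higher and 8 lower of 18 in the Saa3 group and 1 higher and 4 lower of 17 in the Itga8 group. Among all genes 4.4% were higher and 4.18% lower in gated fibroblasts. The shares were 7.59% and 13.3% in the Saa3 group and 2.77% and 2.42% in the Itga8 group. The Spp1 value rests on few cells, as 35 of the 816 members held a UMI of it. Fibronectin (Fn1) had 2981 CPM in the Saa3 group, 162 in the Itga8 group and 605 in stellate cells, and periostin (Postn) had 41.6, 112 and 434. Acta2, the smooth muscle actin gene of myofibroblasts, had 133 CPM [124, 142] in the Saa3 group, 982 CPM [958, 1006] in the Itga8 group and 679 CPM [671, 687] in stellate cells. Of 12 contractile genes, 0 were higher and 0 lower in gated fibroblasts as a whole, 9 were lower and 0 higher in the Saa3 group, and 1 (Lmod1) was higher and 0 lower in the Itga8 group. The summed smooth muscle markers stood at 12.9 CPM in the Saa3 group, 231 in the Itga8 group and 143 in stellate cells.

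Of 16 chemokine and cytokine genes measured, 8 were higher and 2 lower in gated fibroblasts, with a median log2 ratio of 1.19. In the Saa3 group 10 of 16 were higher and 4 lower, and in the Itga8 group 0 of 13 were higher and 8 lower. Over all genes 4.4% were higher and 4.18% lower in gated fibroblasts. The shares were 7.59% and 13.3% in the Saa3 group and 2.77% and 2.42% in the Itga8 group. Cxcl13, a B cell attractant, had 2350.2 CPM [2314, 2386] in the Saa3 group, 4.26 in the Itga8 group, 63.5 in stellate cells and 155 in mesothelial cells. The neutrophil attractants Cxcl1 (1012 CPM, with 70.2 in the Itga8 group) and Cxcl5 (607 and 2.44) and the monocyte attractant Ccl2 (981 and 69.9) followed. Il33, an alarmin gene, had 165 CPM in the Saa3 group, 1.67 in the Itga8 group and 5.36 in stellate cells. Cxcl12 was lower in both groups (735 and 1178 CPM) than the 2266 CPM of stellate cells, which was a called difference in the Saa3 group only, and the difference between the groups was not tested. Of 11 complement genes, Cd55, C1s1, Cfb and C3 were higher and Masp1 was lower. In the Saa3 group 5 of 11 were higher and 2 lower (median log2 ratio -0.17), and in the Itga8 group 2 of 12, Cd55 and C7, were higher and 2 lower. C3, the central component, had 5249 CPM in the Saa3 group and 395 in the Itga8 group, with 227 in stellate cells, 9257 in mesothelial cells and 1376 in immune cells, and the terminal component gene C7 had 0 CPM [0, 0.527] and 19.2 CPM [16.0, 22.8] in the 2 groups.

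Of 24 growth factor ligand and receptor genes, Vegfa was higher (32.0 against 11.9 CPM) and 6 were lower in gated fibroblasts, with 3 higher and 12 lower of 24 in the Saa3 group and 2 higher and 3 lower of 25 in the Itga8 group. Bmp2, Fgfr2 and Bmp5 were lower in both groups. For all genes the shares were 4.4% higher and 4.18% lower in gated fibroblasts. They were 7.59% and 13.3% in the Saa3 group and 2.77% and 2.42% in the Itga8 group. Pdgfra stood at 483 CPM in the Saa3 group, 310 in the Itga8 group and 250.5 in stellate cells, and Pdgfrb at 53.6, 417 and 401. Among 6 insulin-like growth factor binding genes, Igfbp6 was higher and Igfbp3 and Igfbp7 lower. Of 11 Wnt and R-spondin genes 4 were higher (Wnt4, Rspo1, Sfrp1 and Sfrp2) and 2 lower, with 4 higher and 4 lower of 11 in the Saa3 group and 2 higher and 1 lower of 9 in the Itga8 group. Rspo3 was lower in both. Rspo1 had 68.2 CPM in the Saa3 group and 1.83 in the Itga8 group, with 265 in mesothelial cells, while Wnt5a had 17.7 and 233 CPM. Of 6 hedgehog pathway genes Gas1 and Cdon were higher and the receptor gene Ptch1 lower, with Gas1 higher in both groups, and of 10 axon guidance genes Slit3 was higher and 4 were lower. Of 23 transcription factor genes, Wt1, Osr1, Klf4, Twist1 and Prrx2 were higher and 7 were lower, with 7 higher and 15 lower in the Saa3 group and 3 higher and 3 lower in the Itga8 group. Prrx2 and Wt1 were higher and Lhx2, Heyl and Nr1h4 lower in both. Osr1 had 195 CPM in the Saa3 group, 3.20 in the Itga8 group and 317 in mesothelial cells, and Meox2, a homeobox gene, had 0.572 and 20.4 CPM with 3.58 in stellate cells.

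The Saa3 group was then compared with mesothelial cells. Of 8221 genes, 285 (3.47%) were at least 2-fold higher and 724 (8.81%) at least 2-fold lower in the Saa3 group, with a median log2 ratio of -0.15. Mesothelial cells were chosen by 5 or more UMIs of Msln and Upk3b, while the Saa3 group was capped at 1. Of the 9 other genes of the mesothelial list that were measured, 8 were lower and 0 higher. Genes that go with Msln and Upk3b are thus lower by selection, and nothing is inferred from these counts. The keratin gene Krt18 had 1.43 against 269 CPM, Krt7 8.72 against 340.0, the mucin gene Muc16 0.857 against 190.5 and the uroplakin gene Upk1b 6.001 against 291. Igfbp5 (5.29 against 563 CPM), Gpc3 (9.43 against 537) and Cpe (7.001 against 623) were also lower. The genes with the largest ratios were Cxcl13 (15.1 [14.6, 15.7]), Calca (8.03 [7.37, 8.76]), Serpinf1 (7.64 [6.88, 8.49]) and Col6a5 (7.06 [6.69, 7.46]). Prrx1, a transcription factor gene of mesenchyme, stood at 142 against 23.5 CPM, and Hp at 1744 against 302. Of the 25 portal and adventitial genes measured, 9 were higher (among them Col15a1, Fbln1, Fbln2, Mfap5, Slit2 and Slit3) and 6 lower, and of 15 chemokine and cytokine genes 11 were higher and 0 lower. No complement gene of 12 was higher and 6 were lower.

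Finer clustering of the members gave 7 clusters, 3 within the Saa3 group and 4 within the Itga8 group. In the Saa3 group, a Serpinb2 cluster of 131 cells had 899.7 CPM of Serpinb2, 847 of Dmkn, 145 of Mfap5 and 1171 of Igfbp6. A cluster of 157 cells was led by Spp1 by ratio, but only 5.73% of its cells held a Spp1 UMI, while 95.5% held one of Col6a5 and 98.1% one of Fbln2. It had 155 CPM of Serpinb2, 917 CPM of Col6a5, 516 of Fbln2, 227 of Il33, 118 of Rspo1 and 285 of Cd74, the invariant chain of antigen presentation. Saa3 was alike in both (25656 and 25049 CPM), and Clec3b stood at 101 and 69.6 CPM. A Ube2c cluster of 18 cells was led by cell cycle genes such as Birc5 (497 CPM) and Top2a (544), with 365 CPM of Mki67 and a median of 32864 UMIs per cell. Pi16 had its highest level of the 7 clusters in the Spp1 cluster (4.64 CPM), and 14 of the 17 cells with a Pi16 UMI were in the Saa3 group.

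The 4 clusters of the Itga8 group were alike in Dpt (903 to 988 CPM), Itga8 (855 to 1098) and Tcf21 (371 to 486). A C7 cluster of 148 cells had 55.6 CPM of C7, 67.2 of C6 and 461 of Hgf, and it held 184 CPM of Col6a5 and 23.8 of Clec3b, with the lowest median depth (9146.5 UMIs) and the highest median mitochondrial share (5.39%) of the 7. A Knstrn cluster of 133 cells had 204 CPM of Thbs4, 669.98 of Mfap4 and 92.5 of Mki67, of which 18.0% of its cells held a UMI. A Rgs16 cluster of 115 cells had a like level of Thbs4 (204 CPM), with 666 CPM of Socs3, 195 of Irf1 and 1832 of Egr1, genes that respond to cytokines and to handling. An Acta2 cluster of 114 cells had 2571 CPM of Acta2, 4096 of Tagln, 696 of Myl9 and 162 of Myh11, genes of contraction that stood at 364 to 545, 901 to 1075, 208 to 259 and 41.1 to 70.1 CPM in the other 3 clusters of the group. Of the smooth muscle list, Pln and Cnn1 were at 0 and 1.22 CPM in the whole Itga8 group. Lmod1, of the same list, stood at 197 CPM in the Acta2 cluster and 43.9 CPM in the other members. A UMI of Myh11 was present in 57.9% of the cells of the Acta2 cluster. Whether these cells are smooth muscle was not tested.

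**Figure D5:**
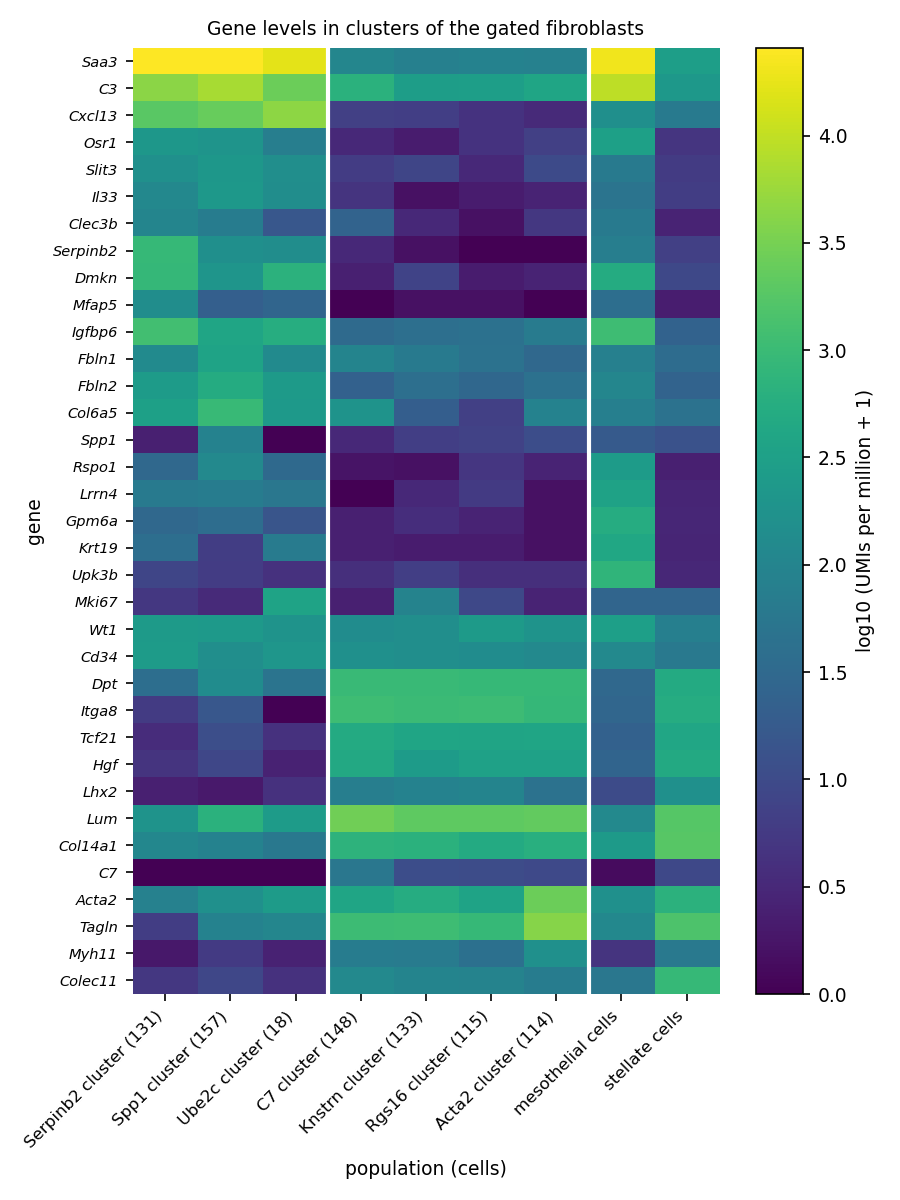
Level of selected genes as log10(CPM + 1) (colour) in the 7 clusters of gated fibroblasts, named by their leading gene with the number of cells, and in mesothelial and stellate cells. White lines separate the Saa3 group (left), the Itga8 group (middle) and the other populations: Saa3 is at 16893 CPM or more in the first 3 clusters and at most 103 CPM in the next 4.

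Cell cycle and immediate early genes were counted beside all genes, of which 4.4% were higher and 4.18% lower in gated fibroblasts. The shares were 7.59% and 13.3% in the Saa3 group and 2.77% and 2.42% in the Itga8 group. Of 14 cell cycle genes measured, Ube2c and Birc5 were higher and 0 lower in gated fibroblasts. Of 15 in the Saa3 group 5 were higher (Ube2c, Tyms, Pclaf, Birc5 and Ccnb1) and 0 lower, and in the Itga8 group 0 of 14 were higher and 0 lower. The Ube2c cluster of 18 cells within the Saa3 group had 758 CPM of Ube2c, against 9.10 CPM in the other members. Birc5 (497 against 8.48 CPM), Pclaf (419 against 7.40) and Ccnb1 (265 against 1.39) were likewise high in these 18 cells. How far the calls rest on them was not tested. At least 10 UMIs of Mki67, Top2a, Ccnb1, Cdk1 and Birc5 were found in 5.88% [3.52, 9.14] of the Saa3 group, 2.55% [1.36, 4.32] of the Itga8 group and 2.44% [1.90, 3.09] of stellate cells, at median depths of 21420.5, 12918 and 14074 UMIs. Of 19 immediate early genes, which digestion can induce, Atf3, Klf6 and Ier3 were higher and Egr2 lower, and in the Saa3 group 6 were higher and 1 lower. Their summed level was 12535 CPM in the Saa3 group, 8066 in the Itga8 group and 9073 in stellate cells, and its part in the other differences was not tested.

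Markers of other cells were few. The immune marker Ptprc had 0.884 CPM in gated fibroblasts against 812 in immune cells, and the neutrophil, T and NK cell, and B and plasma cell lists summed to 9.29, 5.53 and 3.095 CPM against 21744, 1578 and 509 CPM. The macrophage and monocyte list summed to 203 CPM in the Saa3 group (0 to 20.7 per 10000 UMIs in single cells) and 35.6 CPM in the Itga8 group (0 to 5.93), and Cd14 alone gave 189 and 3.80 CPM, while Adgre1 was at 0 in both and Cd68 at 1.86 and 1.67 CPM. The endothelial list summed to 134 CPM, of which Flt1 gave 120.3 CPM, with Pecam1 and Cdh5 at 0 by the rule. The hepatocyte list summed to 33.6 CPM in gated fibroblasts and 85.7 in stellate cells, the cholangiocyte list to 64.3 and 28.0, the erythroid list to 26.5 and 112, and the Schwann cell list to 19.9 and 3.12, of which Mbp gave 19.01 and 1.35 CPM and Sox10 was at 0. Among the highest doublet scores of the library were 1.59% [0.851, 2.71] of gated fibroblasts, 3.61% [2.94, 4.37] of stellate cells and 5.26% [4.74, 5.83] of all cells past the limits.

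In the healthy library the same limits chose 3 of 5044 cells, or 0.0595% [0.0123, 0.174]. Few cells there met the matrix limit, 302 (5.99%) against 5368 of 6573 (81.7%) in the CCl4 library, and the median depth was 7620 against 13687 UMIs. With the matrix limit left out, 47 healthy cells (0.932%) and 822 CCl4 cells (12.5%) passed the rest, with median matrix sums of 1 and 214 UMIs. Over all cells past the depth and mitochondrial limits, Dpt stood at 0.976 CPM in the healthy and 302 CPM in the CCl4 library, Saa3 at 3.74 and 8024, Clec3b at 3.99 and 26.2, and Entpd2 at 23.5 and 23.3. The injury, the library, its depth and the software version of the file cannot be told apart by design.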

How the data were processed

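The authors deposited UMI counts per gene and cell for 1 healthy and 1 CCl4 library of 10x 3' cells, and per the file headers the matrices were written by Cell Ranger 3.1.0 (healthy) and 6.0.1 (CCl4). The labels list the builds GRCh38 and mm10 without saying which file used which. Members, gene lists and comparisons were chosen with earlier results of these data known. The limits on cells were those given at the start of the report. UMIs were summed over the cells of a population and given as CPM with exact Poisson intervals, ratios with exact conditional binomial intervals and shares with Clopper-Pearson intervals, at 95%. Cells are not replicates, so no p-value was computed, and intervals cover counting error only. Genes with a mean of at least 10 CPM were compared, without the 17 genes of the limits. The genes named were the 15 higher and 15 lower with the interval bound nearest to 1 farthest from it, at 100 CPM or more in the higher population, without mitochondrial, ribosomal and unnamed genes; genes of 19 fixed lists and 11 marker lists and the leading genes of clusters were also named. Counts under 3 were set to 3 in log2 ratios. Leiden clustering (scanpy 1.11.5, 2000 variable genes, 10 components, 20 neighbours, resolutions 0.3 and 0.6) was added after the data were seen. Doublets were scored and kept, and removed in an alternative. The ratio step was tested on simulated data. TMM factors came from edgeR 4.0.16. Some genes that these rules chose are not reported here.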

Additional observations from a re-analysis of the deposited data

How the results depend on the processing

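Of 18 alternatives, the number of members was 708 with a portal sum of at least 5 and 475 with at least 10. It was 475 with a stellate sum of at most 1, and 656 with only cells holding a Y-linked UMI and no Xist UMI. It was 477 with Dpt left out of the portal sum. With at most 1 UMI of the mesothelial list without Krt8, Krt18 and Wt1 it was 627. The last pair of alternatives was chosen after the data were seen. Genes lower than in stellate cells numbered 623 with a stellate sum of at most 1 and 558 without Dpt. With no filter beyond 10 UMIs, 1315 genes were higher and 954 lower, at a mean of at least 50 CPM 121 and 159, and after subtraction of the immune cells' profile as background 793 and 672. The cause of these changes was not tested, beyond the number of genes that a filter leaves and of cells that a limit leaves. The higher share of the called genes was 51.3%, and it ranged from 42.7% to 58.0% over the alternatives. The other counts over all genes under these alternatives were within 1.5 times the values reported. None of the 30 named genes changed direction in 539 comparisons, and of 216 counts for 6 of the gene lists 24 moved by more than 1.5 times. Cells with an Xist UMI only gave no value, as 1 member was left. No paired analysis was possible because there is 1 library per condition and the comparisons are between cells of 1 library, with no test. Pi16 rests on 20 UMIs in all members.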
